A study of Mus musculus with 24 samples.

Results

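The genes described here are the hair keratins and the keratin-associated proteins (KAPs) of the mouse, measured in whole-ear RNA after induction of the psoriasis-associated Card14 E138A mutation. They were taken by name: every row whose symbol starts with Krtap, and a list of keratin genes of the inner root sheath and the hair shaft. This gave 80 of the 51912 genes in the count table, 58 of them KAP genes and 22 of the 23 keratins listed; the other one is not analysed here. The mice were C57BL/6, with the genotype given either as Wt (wild type) or as CARD14E138A (E138A below). In E138A mice a stop cassette in the Card14 locus is removed by tamoxifen-activated CreERT2, so that the mutant protein, a scaffold that keeps NF-κB signalling on, is made from its own locus. All 4 groups received tamoxifen by intraperitoneal injection once a day on 3 consecutive days, and ears were taken 5 days or 1 month after the first injection, with 6 libraries per group. The labels do not give the age or sex of the mice, the promoter that drives CreERT2, whether wild-type mice carried CreERT2 or the floxed allele, or whether the libraries came from separate animals, so p-values measure the spread between these libraries.

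Hair is built in the follicle from keratinocytes of the matrix, which differentiate in concentric layers. The layers of the inner root sheath (IRS), which moulds the growing hair, contain their own soft keratins of type I (Krt25 to Krt28) and type II (Krt71 to Krt74). Krt75 belongs to the companion layer and medulla but is counted here among the 9 IRS keratins. The shaft contains hard keratins, listed here as type I (Krt31 to Krt36 and Krt39) and type II (Krt81 to Krt86). Most of them are rich in cysteine, with the least, 2.49%, in Krt84. Hard keratins are embedded in a matrix of KAPs to which they are cross-linked by disulfide bonds. Follicles cycle through growth (anagen), regression (catagen) and rest (telogen), and IRS and shaft genes are known to be transcribed mainly during growth.

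Total counts ranged from 15661515 to 18852963 in the 12 libraries of day 5 and from 19255028 to 23904976 in those of 1 month. Levels are given as CPM, counts scaled to 1e6 per library after normalization, and are not corrected for gene length unless stated. Card14 transcript was read in every library, at a median of 48.5 CPM in wild type and 44.5 CPM in E138A at day 5 and 37.5 and 13 CPM at 1 month; counts per gene do not separate the alleles. Epidermal keratinocyte, cartilage and skeletal muscle markers were present in all libraries of the whole ear. In 4 libraries of 1 month, wild-type replicate 2 and E138A replicates 1, 2 and 6, the summed Y-linked genes were 17.9 to 67.6 CPM, against 102 to 267 CPM in the others, and at 1 month the class sums, their composition, the counts of members called, the class medians and the members whose call changed are given with and without these. Levels in these 4 libraries also correlated with the GC content of genes, at 0.291 to 0.56 (Spearman, deviation from each gene's mean). E138A replicates 3 to 5 of 1 month were at -0.461 to -0.394. Wild-type replicates 4 and 5 of 1 month, which were kept, were at 0.262 and 0.321, with Y-linked sums of 102 and 109.5 CPM. Leaving out the 4 does not remove all of this gradient, whose part in the values was not tested. In bulk tissue, fewer cells of a type and less RNA per cell cannot be told apart.

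Classes of KAP were set from the encoded protein: 21 ultra-high sulfur proteins had at least 30% cysteine (30.3% to 42.9%), 15 high glycine-tyrosine proteins had 47.5% to 69.2% of these residues, and the remaining 21 were put together as high sulfur proteins (4% to 29.8% cysteine). Krtap19-9a, a processed pseudogene with no encoded protein, was placed with its numbered family as the 16th member of the high glycine-tyrosine class. Krtap7-1, usually grouped with the high glycine-tyrosine proteins, fell in the last class by this rule with 29.9% glycine plus tyrosine. Cysteine made up 0.73% to 2.24% of the 8 IRS keratins with an encoded protein (all but Krt74), 4.65% to 7.69% of the 8 type I shaft keratins and 2.49% to 6.79% of the 5 type II shaft keratins. On GRCm38, 35 members lie on chromosome 11, 25 on chromosome 16 and 10 on chromosome 15. The clusters hold near-identical copies: in 25 members over 10% of the 75-base windows of the exons occur in other genes as well, so their reads may be split between copies. Krtap3-2 shares 27.1% of its windows and Krtap3-3 39.1%, mostly with each other.

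The promoters shared a sequence feature that the choice by name did not use. RefSeq (GRCm38.p6) start sites were found for 67 of the 80 genes. The 250 bases before the start held the TATA-box letters TATAAA, on either strand, in 53 of these 67 promoters (79.1%), against 12.97% of 27025 mouse promoters. Some promoters of the clusters are near copies, such as those of Krtap31-1 and Krtap31-2, so the shares given here do not rest on 67 separate cases. The letters CTTTGA, the core bound by LEF1 and TCF factors, were present in 26.9% of the members and 14.1% of all promoters. By class they were in 5 of 6 type I shaft keratins (83.3%), 7 of 19 high sulfur and 4 of 15 high glycine-tyrosine KAPs. They were in only 1 of 8 IRS keratins (12.5%), 0 of 2 type II shaft keratins and 1 of 17 ultra-high sulfur KAPs (5.88%). Shown are the 150 bases before the start, 5′ to 3′ on the minus strand, which codes for each of these genes, with TATAAA in capitals. They represent an IRS keratin (Krt71, chr15:101743098-101743247), a shaft keratin (Krt31, chr11:100050552-100050701), the most abundant high glycine-tyrosine KAP (Krtap8-1, chr16:89487953-89488102) and the KAP with the opposite pattern (Krtap3-2, chr11:99556854-99557003).
Krt71: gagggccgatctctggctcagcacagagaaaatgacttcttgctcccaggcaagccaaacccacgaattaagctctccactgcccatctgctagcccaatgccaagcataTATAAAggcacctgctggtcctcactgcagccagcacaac
Krt31: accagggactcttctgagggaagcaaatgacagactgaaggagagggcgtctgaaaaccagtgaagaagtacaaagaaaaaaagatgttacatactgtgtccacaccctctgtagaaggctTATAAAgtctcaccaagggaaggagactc
Krtap8-1: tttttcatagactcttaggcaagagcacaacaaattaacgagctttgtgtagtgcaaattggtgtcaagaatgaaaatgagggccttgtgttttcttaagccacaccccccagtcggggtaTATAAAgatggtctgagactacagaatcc
Krtap3-2: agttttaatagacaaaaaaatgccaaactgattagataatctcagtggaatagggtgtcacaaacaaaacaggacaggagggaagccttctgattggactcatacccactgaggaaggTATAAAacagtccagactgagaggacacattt
All 4 hold the motif shortly before the start, Krtap3-2 included. Of the 67 promoters 51 had it within these 150 bases, with its first base at a median position of -31.

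Hair genes were close to absent in wild-type ears at day 5. The summed level of the 9 IRS keratins was 11.9 CPM in the lowest, 13 in the median and 21.5 CPM in the highest wild-type library. The 13 shaft keratins together were at 3.70, 4.84 and 6.14 CPM, and the 58 KAPs at 10.4, 11.1 and 14.98 CPM. Most of these sums came from 3 genes with little spread between libraries. Krt75 was at 8.17 to 13.9 CPM (median 10.6), Krtap3-2, a high sulfur KAP, at 8.69 to 12.0 CPM (median 9.92) and Krt32, a type I keratin of the hair cuticle, at 1.85 to 3.14 CPM (median 2.49). Without Krtap3-2 the KAP sum was 0.58 to 4.98 CPM. The number of members with a count was 48 in replicate 1 and 14 to 25 in the others. Of the 80 members, 24 had no count in any of the 6 libraries and 10 had a count in every library: Krt25, Krt27, Krt28, Krt71, Krt73, Krt75, Krt84, Krt32, Krtap3-2 and Krtap3-3.

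**Figure D1:**
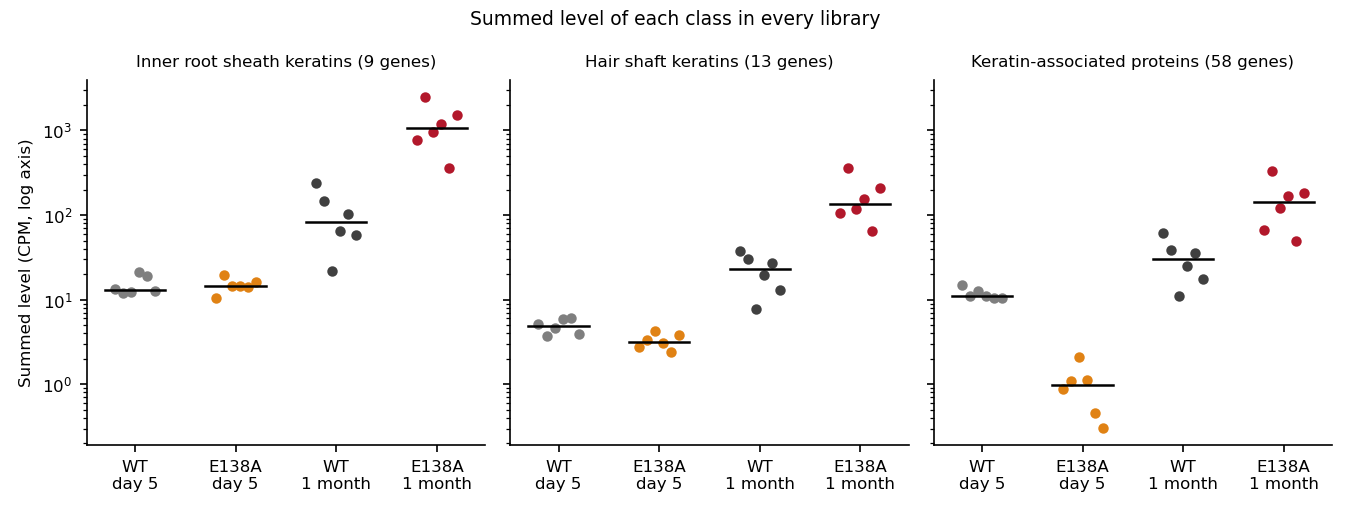
Summed level (CPM, log axis) of the IRS keratins, shaft keratins and KAPs in each of the 24 libraries; points are libraries and lines are medians. The 6 E138A libraries of 1 month lie above the wild-type libraries of 1 month for the IRS keratins (360.6 to 2512 against 21.7 to 238 CPM) and the shaft keratins, and the ranges of the KAP sums overlap.

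At day 5, 2 of the 48 tested members differed between the genotypes, both lower in E138A ears. Krtap3-2 was at 8.69, 9.92 and 12.0 CPM (lowest, median, highest) in wild type and at 0, 0.057 and 0.31 CPM in E138A, where 3 of the 6 libraries had no count. The ranges lie far apart, with 1005 counts in the wild-type group and 10 in the mutant group. The log2 fold change was -6.66 ± 0.58 (SE, n = 6 per group, adjusted p = 8.1e-09, edgeR). Krt32 was at 1.85, 2.49 and 3.14 CPM in wild type and at 0.36, 0.66 and 1.13 CPM in E138A, again without overlap (log2 fold change -1.89 ± 0.32, adjusted p = 4.7e-05).

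No other member passed the test at day 5. Of 48 members that passed the filter on low counts, 0 were called higher and 2 lower by edgeR, and the same 0 and 2 counts came from an unadjusted p below 0.05, from DESeq2 and from limma voom with sample quality weights. Over all 17287 genes tested, 20.7% were called higher and 20.2% lower in this comparison, and the groups did not overlap in 17.9% (higher) and 16.4% (lower). Among the tested members the groups did not overlap in 0 (higher) and 2 (lower). Few members were well measured at day 5. The filter level of 0.52 CPM was reached in all 6 libraries by 4 members in wild type and by 2 in E138A. Of the 12 members that reached it in at least 6 libraries outside the E138A group of 1 month, 0 were called higher and 2 lower. The missing calls therefore do not show that the other members were unchanged. In E138A ears of day 5, 37 of the 80 members had no count in the group and 7 had a count in every library. Krt75, well measured in both groups, was at 8.17, 10.6 and 13.9 CPM in wild type and at 8.72, 10.95 and 14.6 CPM in E138A. Krt84, a type II keratin, was at 0.75, 1.49 and 2.45 CPM in wild type and at 1.39, 1.60 and 3.13 CPM in E138A. The ranges of both genes overlap between the genotypes, and the other IRS keratins with counts in most libraries, such as Krt71 (0.062 to 3.03 CPM against 0 to 1.78 CPM), overlapped as well.

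Krtap3-3, the closest relative of Krtap3-2, had a level of 0.12, 0.67 and 1.44 CPM in wild type and 0.12, 0.28 and 0.82 CPM in E138A at day 5, and was not called. Krtap3-1, the third gene of this family, had 4 counts in wild type, all from replicate 1, and none in E138A. Per kb of exon, Krtap3-2 was the highest of the 80 members in wild-type ears at day 5, with a mean of 9.76 CPM per kb against 3.38 for Krt75 and 0.94 for Krtap3-3.

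**Figure D2:**
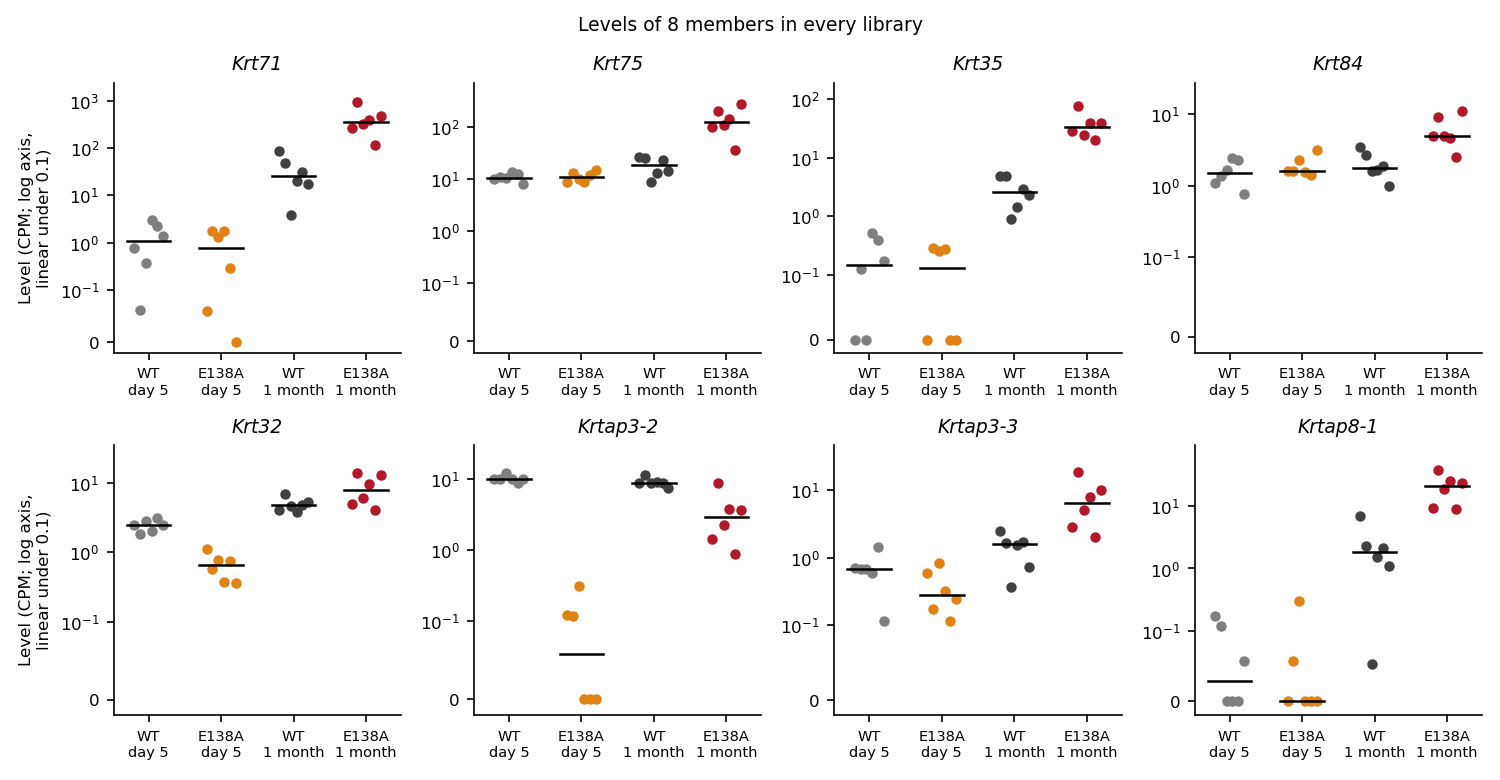
Levels (CPM, log axis that turns linear under 0.1) of 8 members in each library; lines are medians. Krt71, Krt35 and Krtap8-1 are near 0 at day 5 and highest in E138A ears of 1 month, while Krtap3-2 lies at 7.48 to 12.0 CPM in the wild-type libraries of both times and lower in all E138A libraries but 1.

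In wild-type ears the hair genes were higher at 1 month than at day 5, to a degree that differed widely between libraries. The IRS keratin sum was 21.7 CPM in the lowest, 83.3 in the median and 238 CPM in the highest of the 6 wild-type libraries. Shaft keratins were at 7.79, 23.3 and 37.7 CPM and KAPs at 11, 30.2 and 60.5 CPM. For each of the 3 sums wild-type replicate 1 was the highest and replicate 3 the lowest. Without replicate 2, which stood apart in Y-linked genes, the medians were 64.9, 19.4 and 24.99 CPM. The number of members with a count was 36 to 73 per library, against 14 to 48 at day 5.

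Of 48 tested members, 40 were called higher and 0 lower in wild type at 1 month against day 5 (45 and 0 at an unadjusted p below 0.05). Most of the 48 passed the filter through the E138A group of 1 month, so this share is not set against that of all genes. Of the 12 members that reached the filter level outside that group, 8 were called higher and 0 lower. Of these 12, 11 reached it in the wild-type libraries of 1 month alone and 4 in those of day 5. That choice favours a higher value at 1 month too, so this count is not set against all genes either. Over all genes tested 6.28% were called higher and 2.81% lower. Those shares stand for 1086 and 486 genes, a split that moved to 1457 and 374 with DESeq2's size factors in edgeR and to 1518 and 346 with scaling to total counts alone; the members were then 41 and 0 in both. DESeq2 called 43 and 0, and limma voom with sample quality weights 38 and 0. Without wild-type replicate 2 and the 3 E138A libraries that stood apart, 42 of 51 tested were called higher. The smallest adjusted p-values were all in IRS keratins: Krt73 rose 13.6-fold (log2 fold change 3.77 ± 0.51, adjusted p = 4.7e-05), Krt27 19.5-fold, Krt28 8.61-fold and Krt25 22.7-fold. Krt72, with 2 counts at day 5 and 384 at 1 month, was 144-fold higher per total count (95% counting interval 39.7 to 1196, counting error only). The groups did not overlap in 11 of 48 tested members and in 11 of all 80, all higher at 1 month. Over all genes tested 2.90% were higher without overlap. The filter favours this direction among the 48, so their share is not set against that of all genes. The 8 members not called were Krt75, Krt84, Krtap3-2 and Krtap3-3, all with counts in every wild-type library at day 5, and the low Krtap16-3, Krtap1-5, Krtap1-3 and Krtap4-2. Krtap3-2 was at 7.48, 8.80 and 11.4 CPM at 1 month, a range that overlaps with day 5 (log2 fold change -0.15 ± 0.38, adjusted p = 0.81).

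At 1 month IRS keratins, shaft keratins and most KAPs were several-fold higher in E138A than in wild-type ears. The IRS keratin sum was 360.6, 1066 and 2512 CPM in E138A, with no overlap with wild type. The shaft keratin sum was 65.5, 136 and 360 CPM, again above all wild-type libraries, and the KAP sum was 49.5, 144 and 329 CPM, a range that the highest wild-type library (60.5 CPM) entered. E138A replicate 2 was the highest for each of the 3 sums and replicate 5 the lowest. In the 3 E138A libraries that did not stand apart in Y-linked genes the sums were 360.6 to 1180, 65.5 to 155 and 49.5 to 168 CPM, so that the IRS and shaft sums still lay above all wild-type libraries.

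Of the 48 tested members, 45 were called higher, 1 lower and 2 were not called. Over all genes tested 25.5% were called higher and 21.5% lower at 1 month. These counts describe members that passed the filter largely through the E138A group, since the filter level of 0.52 CPM was reached in at least 6 libraries by 43 members within that group alone but by only 12 members in the other 18 libraries. Of those 12, 11 were called higher and 1 lower. With no filter, 50 of the 80 were called higher and 1 lower. Without the 4 libraries that stood apart, 39 of 51 tested members were called higher and 1 lower, and 38 of these 40 had a call with all libraries too. The class medians were then log2 fold changes of 3.07 for the IRS keratins, 2.53 and 2.45 for type I and type II shaft keratins, 1.60 for high glycine-tyrosine, 2.54 for high sulfur and 1.69 for ultra-high sulfur KAPs. The high glycine-tyrosine KAPs lost most calls, with 4 of 9 called. The groups did not overlap in 22 of the 48 tested members and in 23 of all 80, all higher in E138A. Over all genes tested they did not overlap in 12.2% (higher) and 9.05% (lower). The filter favours the higher direction among the 48, so their share is not set against that of all genes.

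**Figure D3:**
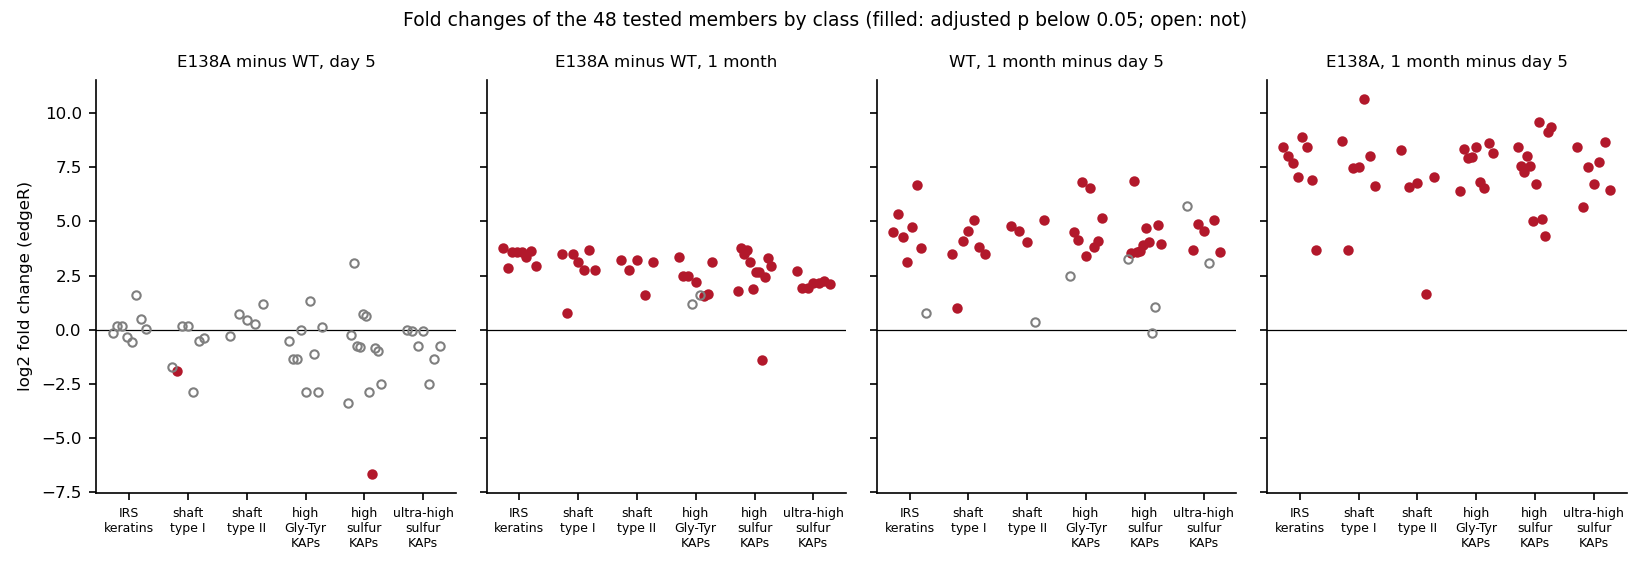
Log2 fold changes (edgeR) of the 48 tested members by class in 4 comparisons; filled points have an adjusted p below 0.05. In E138A against wild type, 2 points are filled at day 5, both below 0, and 46 at 1 month, of which 1 (Krtap3-2) is below 0.

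All 8 tested IRS keratins were higher in E138A at 1 month, by log2 fold changes of 2.85 to 3.79 (median 3.59, against 0.05 over all genes tested). Krt71, the type II keratin of all IRS layers and the most abundant member, was at 3.79, 26.1 and 88.0 CPM in wild type and at 116, 354 and 954 CPM in E138A (12.0-fold, log2 fold change 3.58 ± 0.68, adjusted p = 0.00013). Krt25, its type I counterpart, was at 4.16, 16.7 and 54.5 CPM in wild type and at 99.9, 281 and 587 CPM in E138A (13.8-fold). Neither gene had a wild-type library within the E138A range. Krt27 (12.1-fold), Krt28 (12.0-fold) and Krt73 (12.5-fold) had nearly the same ratio, and Krt28 the smallest adjusted p (9.9e-08). Krt75 rose less, 7.77-fold, from 8.90, 18.7 and 26.3 CPM to 36.4, 125 and 279 CPM. Krt26 (7.21-fold) and the IRS cuticle keratin Krt72 (10.4-fold) were called with overlapping ranges. Krt74, annotated as a pseudogene in GENCODE M21, did not pass the filter and ranged from 0.043 to 0.66 CPM in wild-type and from 0.21 to 2.51 CPM in E138A libraries.

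Among shaft keratins, 7 of 7 tested type I and 5 of 5 tested type II genes were higher (medians 3.12 and 3.13). Krt35, an early keratin of the cortex and cuticle, was at 0.89, 2.61 and 4.93 CPM in wild type and at 19.8, 33.9 and 75.1 CPM in E138A (13-fold, log2 fold change 3.70 ± 0.48, adjusted p = 1.1e-06). Krt31, a cortex keratin, was at 0.26, 1.68 and 2.66 CPM in wild type and at 7.16, 14.8 and 38.0 CPM in E138A (11.2-fold). Both were higher in every E138A library than in any wild-type library. Krt33a rose 11.3-fold and Krt33b 8.67-fold. The type II keratins Krt81 (9.25-fold), Krt83 (9.21-fold) and Krt86 (8.77-fold) rose by similar ratios and Krt82 of the cuticle by 6.79-fold. Krt81 and Krt86 share 30.7% and 33.5% of their windows with related genes, so their separate values are uncertain. Krt34 rose 6.77-fold and Krt36 6.81-fold. Krt84, already present at day 5, rose 2.99-fold with overlapping ranges (0.98, 1.75 and 3.52 CPM against 2.49, 4.95 and 10.9 CPM). Krt32 had the smallest difference, from 3.83, 4.73 and 6.94 CPM to 4.11, 7.84 and 13.7 CPM (log2 fold change 0.79 ± 0.27, adjusted p = 0.018). That call was lost without the 4 libraries that stood apart (0.52, adjusted p = 0.098), without E138A replicate 2 (adjusted p = 0.068) and without E138A replicate 6 (adjusted p = 0.079).

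Of the KAPs, 7 of 9 tested high glycine-tyrosine genes were higher (median 2.19), as were 11 of 12 high sulfur genes (median 2.80) and 7 of 7 ultra-high sulfur genes (median 2.15). Krtap7-1 was at 0.11, 2.34 and 5.79 CPM in wild type and at 7.94, 19.5 and 54.5 CPM in E138A (9.88-fold). Krtap8-1 was at 0.053, 1.81 and 6.77 CPM in wild type and at 8.96, 20.8 and 36.7 CPM in E138A (8.62-fold, log2 fold change 3.11 ± 0.57, adjusted p = 8.8e-05). Krtap11-1, a high sulfur protein, was at 0.26, 1.01 and 2.46 CPM against 7.06, 14.3 and 34.7 CPM (13.6-fold). These 3 genes were higher in every E138A library. Krtap14 (12.7-fold), Krtap13-1 (11.1-fold) and Krtap16-3 (10.3-fold) also did not overlap between groups. In the ultra-high sulfur class no gene was free of overlap: Krtap4-7 was at 0.13, 0.30 and 1.37 CPM against 0.68, 1.94 and 7.50 CPM (4.72-fold), Krtap4-16 rose 4.42-fold, Krtap9-1 4.31-fold and Krtap17-1 3.74-fold. Krtap6-1 (1.61 ± 0.68, adjusted p = 0.060) and Krtap21-1 (1.19 ± 0.73, adjusted p = 0.21) were not called.

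Krtap3-2 was the 1 member lower in E138A at 1 month; it is named here after its values were seen. It was at 7.48, 8.80 and 11.4 CPM in wild type and at 0.88, 2.93 and 8.86 CPM in E138A (log2 fold change -1.39 ± 0.39, adjusted p = 0.0047). The single E138A library within the wild-type range was replicate 2, which was also the highest for each of the 3 sums. Without the 4 libraries that stood apart the log2 fold change was -1.92 (adjusted p = 0.00016). Krtap3-3 went the other way, from 0.37, 1.60 and 2.503 CPM to 1.99, 6.44 and 18.4 CPM (5.36-fold higher, adjusted p = 0.00039). Krtap3-2 shares 27.1% and Krtap3-3 39.1% of its windows, mostly with each other, so reads may be split between them and their separate values are uncertain.

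The composition of the summed hair transcripts differed between the groups as well. IRS keratins made up 53.6% to 70.8% of the 3 sums in wild-type and 75.8% to 81.6% in E138A libraries at 1 month, and KAPs 18.0% to 27.2% in wild-type and 7.09% to 11.2% in E138A libraries. Neither pair of ranges overlapped, with or without the 4 libraries that stood apart; no test was run. For the KAPs this rests on Krtap3-2. Without that gene, an alternative chosen after seeing the data, the KAP shares overlapped (6.98% to 17.2% in wild-type and 6.95% to 10.95% in E138A libraries), while the IRS keratin shares did not (64.7% to 72.7% and 76.0% to 81.7%). With all members, the shares of shaft keratins, 11.2% to 19.3% and 9.91% to 13.8%, overlapped. Per kb of exon the order in E138A ears at 1 month was led by Krt71 (192 CPM per kb), Krt25 (157), Krt27 (107) and Krt75 (44.4), followed by Krtap7-1 (39.0), Krt73 (35.8), Krtap8-1 (35.1) and Krt28 (32.2). The spread between libraries was wide, with an SD of 289 CPM on a mean of 420 CPM for Krt71 and of 176 CPM on 312 CPM for Krt25. Within libraries the first 4 kept their order per kb in 6 of 6, each above the next. Further down the order was not kept: Krt75 was above Krtap7-1 in 4 of 6 libraries, Krtap7-1 above Krt73 in 3, Krt73 above Krtap8-1 in 2 and Krtap8-1 above Krt28 in 5.

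**Figure D4:**
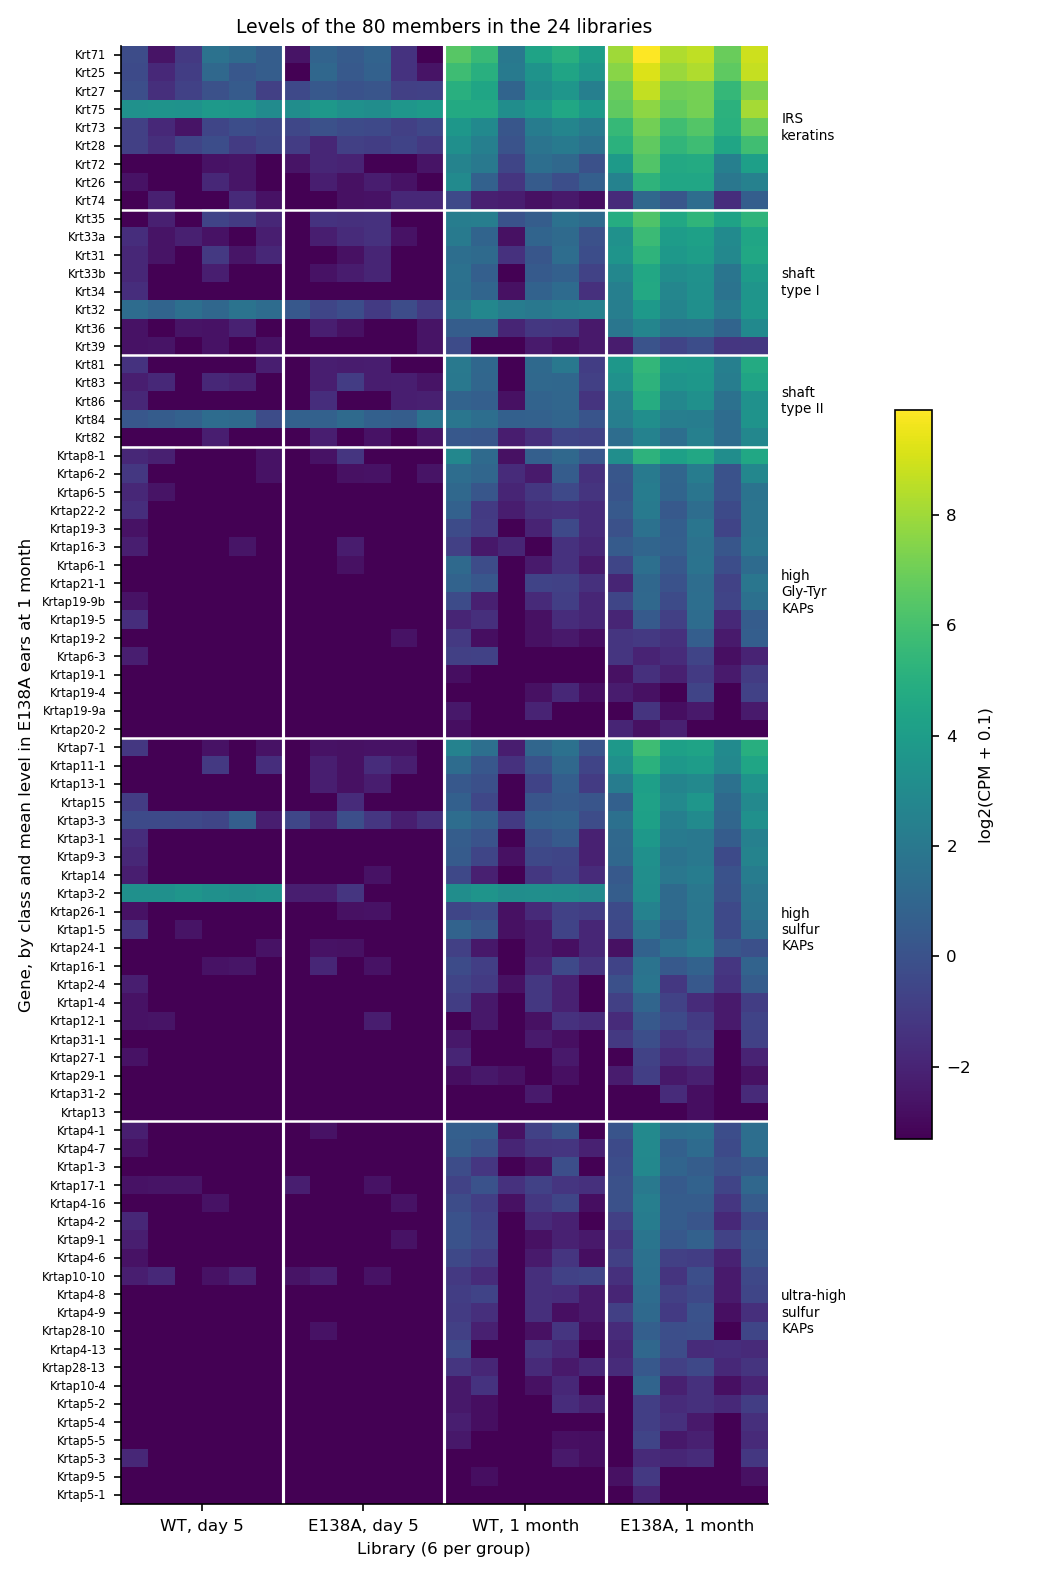
Levels of the 80 members, as log2(CPM + 0.1), in the 24 libraries; rows are grouped by class and columns by group, with replicates 1 to 6 from left to right. Krt75, Krt32, Krt84 and Krtap3-2 stand out at day 5, and E138A replicate 2 is the brightest and wild-type replicate 3 the darkest column of 1 month.

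Within E138A ears, all 48 tested members were higher at 1 month than at day 5, and 47 of them without overlap, the exception being Krt84. Over all genes tested 11.2% were called higher and 8.23% lower, and 5.05% were higher without overlap. Being tested already favoured members that are high in E138A at 1 month, through which most passed the filter. The shares of members called and of members without overlap are therefore not set against those of all genes. The 12 members that reached the filter level in the other 18 libraries were all called higher, as were all 51 tested without the libraries that stood apart. No member was called lower, whether by edgeR, by DESeq2, by limma voom with sample quality weights or at an unadjusted p below 0.05. Krt28 rose from 0.17, 0.42 and 0.52 CPM to 22.1, 49.0 and 103 CPM (131-fold, log2 fold change 7.03 ± 0.49, adjusted p = 5.2e-10). Krt73 rose 119-fold and Krt35 257-fold. Several genes without a count at day 5 can be given only as a bound against 3 counts over the group: Krt34 was at least 359-fold higher, Krtap3-1 at least 172-fold and Krtap9-3 at least 147-fold. The time comparisons use the same libraries as the genotype comparisons and are not separate evidence.

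The change of the genotype effect between day 5 and 1 month was tested as an interaction. Of 48 members 11 passed, all with a higher value at 1 month (0 lower, also 0 at an unadjusted p below 0.05, by DESeq2 and by limma voom with sample quality weights), where 4.68% (higher) and 4.09% (lower) of all genes did. The filter favours a positive value here as well. Of the 12 members that reached the filter level outside the E138A group of 1 month, 10 passed. The same 11 members passed without the libraries that stood apart. They were 6 IRS keratins, 3 type I shaft keratins and the KAP genes Krtap3-2 and Krtap3-3. Krtap3-2 had the smallest adjusted p, with a difference in log2 fold change of 5.27 ± 0.71 (adjusted p = 3.9e-05), since it was lower in E138A at both times but less so at 1 month. For Krt32, lower at day 5, the difference was 2.68 ± 0.42 (adjusted p = 0.00015), although its higher level at 1 month was not called in every fit (above). Krt75 (2.94 ± 0.47, adjusted p = 0.00023), Krt28 (3.92 ± 0.68, adjusted p = 0.00051) and Krt73 (3.12 ± 0.74, adjusted p = 0.0087) followed. The number differed between tools: DESeq2 called 20 of the 48, and limma voom with sample quality weights 42.

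Other genes of the hair follicle were read from lists that hold no member. Of 18 structural and enzyme genes of the root sheath and shaft other than the keratins above, 16 were tested. At 1 month 11 were higher and 1 lower in E138A (median 2.07). Tchh, the trichohyalin gene of the IRS and medulla, rose from a mean of 43.6 to 410 CPM (log2 fold change 3.23 ± 0.56, adjusted p = 4.3e-05), S100a3, a cuticle calcium-binding protein, from 8.77 to 49.7 CPM (2.5 ± 0.27), Tgm3, a transglutaminase, from 67.5 to 283 CPM and Padi3, which deiminates trichohyalin, from 2.72 to 31.4 CPM. At day 5, 4 were higher and 4 lower (median 0.26). S100a3 fell there from 5.13 to 0.96 CPM (-2.41 ± 0.31, adjusted p = 1.8e-06) and Mt4, a metallothionein of stratified epithelium, was lower at both times (-2.04 ± 0.37 and -2.5 ± 0.37).

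Of 24 regulators of the hair matrix, 2 were higher and 10 lower in E138A at day 5 (median -0.47), and 10 higher and 7 lower at 1 month (median 0.24). Foxe1 rose from 0.27 to 3.77 CPM at 1 month (3.74 ± 0.45, adjusted p = 3.8e-07). Hoxc13, a known activator of hair keratin genes, was at 5.21 and 3.45 CPM at day 5 (not called, adjusted p = 0.077) and rose from 5.56 to 16.4 CPM at 1 month (1.55 ± 0.26, adjusted p = 2.5e-05). Lef1 fell at day 5 (-0.64 ± 0.18) and rose at 1 month (0.81 ± 0.18), and Foxn1 rose at 1 month (0.84 ± 0.14). Foxq1, Bmp4 and Msx1 were lower in E138A at both times. Shh, the matrix signal of growing follicles, was low in all groups, at a mean of 0.029 and 0 CPM at day 5 and 0.29 and 0.85 CPM at 1 month (adjusted p = 0.092). Within E138A its rise over time was called (adjusted p = 0.0011). Of these list genes Tchh, Mt4, Hoxc13, Lef1, Foxn1, Msx1 and Shh were named after their values were seen.

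Markers of other cells of the ear also differed between the genotypes, and their part in the values above was not tested. At 1 month the summed level was lower in E138A for 8 sebaceous gland genes (4641 to 7188 against 1939 to 3599 CPM; 6 of 8 fell, 0 rose), 14 dermal papilla genes (504.5 to 947 against 154 to 298 CPM; 4 fell and 3 rose of 13 tested), 6 adipocyte genes (409 to 951 against 150 to 242 CPM; 6 of 6 fell) and 8 skeletal muscle genes (5303 CPM or more against 3801 CPM or less; 8 of 8 fell). It was higher for 17 proliferation genes (286 to 574 against 930 to 1456 CPM; 17 of 17 rose), which were also higher at day 5 (502 to 627 against 1076 to 1397 CPM; 16 of 17 rose).

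For 7 leukocyte genes the wild-type sums were 67.1 to 84.1 CPM and the E138A sums 1966 to 8696 CPM at day 5 (4 rose and 1 fell of 6 tested), and 61.8 to 114 against 3183 to 7160 CPM at 1 month (5 rose, 1 fell). Log2 fold changes of the tested genes had a median of 1.791 and a maximum of 10.03 at day 5. At 1 month the median was 1.296 and the maximum 7.957. The leukocyte sums therefore do not stand for the typical gene of the list, and which cells made these transcripts was not tested. The sums of 14 genes of the outer root sheath, bulge and infundibulum were 2517 to 3152 against 2396 to 11850 CPM at day 5 (4 rose, 9 fell) and 2942 to 4015 against 7254 to 16140 CPM at 1 month (6 rose, 3 fell). Their median log2 fold change was -0.837 at day 5 (maximum 9.235) and 0.198 at 1 month (maximum 5.636). Krt16 alone went from a mean of 16.01 to 2531 CPM at day 5. Abundant genes that rose thus weigh most in these sums, and the cells that made them were not tested. Of 7 tested cartilage genes 7 fell at day 5 (505 to 702 against 181 to 359.8 CPM) and 5 at 1 month (421.5 to 902 against 235 to 416 CPM). Of the adipocyte genes 5 of 6 and of the skeletal muscle genes 5 of 8 also fell at day 5. Of the 8 melanocyte genes, which colour the growing shaft, 7 fell at day 5 (sums of 81.9 to 107 against 30.4 to 40.8 CPM) and 3 rose at 1 month (38.4 to 74.1 against 57.9 to 83.9 CPM). At day 5 the sums of the sebaceous gland genes were 5949 to 8139 CPM against 2159 to 4031 CPM in E138A (5 of 8 fell), and those of the dermal papilla genes 478 to 532 against 187 to 342 CPM (6 of 13 fell). In these lists the genes without a count in a whole group were Ly6g of the leukocyte and Matn1 of the cartilage list, both in wild type at day 5.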

How the data were processed

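RNA of 24 whole-ear samples was made into polyA libraries and read from 1 end, per the labels' protocols. The table holds unscaled expected counts for each Ensembl gene, which the authors obtained with RSEM, per the file headers. The submitters' processing notes name RSEM 1.3.0, STAR 2.5.2, DESeq2 1.14.1 and build GRCm38; the annotation release and the strandedness are not given in the sources used here. Values were rounded to whole counts before use (6.71% were not whole). Symbols came from GENCODE M21 (51633 of 51912 identifiers found).

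In R 4.3.3 with edgeR 4.0.16, 17287 genes passed filterByExpr by group, were scaled by TMM and fitted to all 24 libraries with 1 coefficient per group by the robust quasi-likelihood pipeline. Two-sided p-values were adjusted by Benjamini-Hochberg over these genes, with calls below 0.05; the SE is the log2 fold change divided by the square root of F. With no count in a group, bounds were taken against 3 counts over the group; ratios against 1 to 3 counts carry an exact 95% interval for counting error alone. KAP classes were set from coding sequences of GENCODE M21, not from RefSeq proteins as had been planned. The fit was tested on simulated data first.

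The members and gene lists were chosen with earlier results of these data known. Named genes were, for each genotype comparison, up to 4 tested members per class with the smallest adjusted p, for the interaction and time comparisons the 5 smallest, all listed keratins, the 3 most abundant KAPs of each class, and up to 3 genes of each other list. Krtap3-2, Krtap3-3, Krtap6-1 and Krtap21-1 at 1 month, Krtap3-1, Krtap9-3 and the members listed as not called in wild type over time were named after their values were seen. No 2 libraries of a group agreed within sampling noise (smallest chi-square per degree of freedom 4.86, genes of 20 counts or more). Alternatives were DESeq2 1.42.0, voom of limma 3.58.1 with sample quality weights, a replicate block, other scalings, filters and fits, and leaving out libraries.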

Additional observations from a re-analysis of the deposited data

Results flagged for a closer look

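In 112 groups of 6 libraries (3 class sums and the named members) the highest or lowest library was tested by Dixon's rule. Chance meets it in about 1 of 20 groups of normally distributed values. A group with counts in only 1 library always meets it, as for Krtap19-3, Krtap19-9b and Krtap22-2 in wild type at day 5. The rate does not hold for such groups. Every library that met the rule was a high one. At day 5 most were wild-type replicate 1 with counts of a few reads: Krtap1-5 at 0.289 CPM, Krtap22-2 and Krt34 at 0.231 CPM, Krtap6-5, Krtap4-2 and Krt86 at 0.174 CPM, Krtap9-1 and Krtap4-1 at 0.116 CPM, and Krtap19-3, Krtap19-9b and Krtap4-7 at 0.0578 CPM. Krt82 had its high wild-type library in replicate 4, at 0.117 CPM. In E138A ears of day 5 single libraries were high for Krt83 (0.409 CPM), Krt31 (0.162 CPM), Krtap9-1 (0.0579 CPM) and Krtap4-1 (0.0573 CPM).

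At 1 month the high E138A library was replicate 2 for Krt27 (408.9 CPM), Krt35 (75.1 CPM), Krt33a (51.2 CPM), Krt86 (29.3 CPM), Krtap3-2 (8.86 CPM), Krtap4-7 (7.50 CPM) and Krtap4-16 (4.88 CPM). In wild type, replicate 1 was high for Krtap8-1 (6.77 CPM).

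The E138A effect differed between day 5 and 1 month by the interaction test, on the log2 scale by 5.27 in Krtap3-2, 5.22 in Krt31, 4.2 in Krt35, 4.16 in Krt71, 3.95 in Krt25, 3.92 in Krt28, 3.42 in Krt27, 3.26 in Krtap3-3, 3.12 in Krt73, 2.94 in Krt75 and 2.68 in Krt32.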

How the results depend on the processing

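The day 5 comparison was limited by low counts, since most members had few or none there. The count of members that passed the interaction test was 11 with edgeR, 20 with DESeq2 and 42 with limma voom and sample quality weights. Members called higher in wild type over time were 9 when the wild-type libraries alone were filtered and fitted, since only 12 members then passed the filter. Members called higher in E138A over time were 74 with no filter. Without Krtap3-2, an alternative chosen after seeing the data, the wild-type KAP sum at day 5 averaged 1.73 CPM. With the replicate number as a block, 33 instead of 40 members were called higher in wild type over time and 45 higher at 1 month. No consistent pairing of numbers was found in the libraries' deviations (correlations of -0.733 to 0.394). At 1 month these deviations also hold the GC gradient, so they cannot decide whether libraries with the same number belong together. The other counts of calls and class sums stayed within 1.5 times or 1 SD of their values under every alternative run, and leaving out any 1 library kept them so. In uncalled day 5 values leaving out 1 library turned the sign: the log2 fold change ranged from -0.825 to 0.062 in Krt35, -0.31 to 0.70 in Krt83, -2.05 to 1.31 in Krtap9-1 and -2.04 to 1.31 in Krtap4-1. Krtap9-1 at 1 month lost its call when only the libraries compared were fitted (adjusted p = 0.0507), as did Krt32 (adjusted p = 0.071), which also did so at a minimum log2 fold change of 1. In the interaction Krt35 lost its call without wild-type replicate 4 of day 5 (3.64, adjusted p = 0.083). The cause was not tested.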
